A study of Mus musculus with 24 samples.

Results

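Ciart, Bhlhe40, Bhlhe41 and Usp2 are 4 genes grouped as outputs of the E-box, the DNA element that the clock proteins CLOCK and BMAL1 bind. They were chosen here by gene symbol from the 53465 genes listed. All 4 passed the filter, which left 15493 genes that reached 5 normalized reads in no fewer than 6 of the control or 6 of the mutant mice. RNA was sequenced from endothelial cells of the brain, the cells that line its blood vessels, which were sorted with an antibody against CD31 (10000 to 20000 cells per mouse). All mice were homozygous for a floxed exon of Bmal1 (Bmal1fl/fl). The 12 control mice carried no Cre, and the 12 mutant mice (Bmal1fl/fl; Tie2-cre) expressed Cre recombinase from the Tie2 promoter, so the exon was to be deleted in cells in which that promoter is or was active, which in this Cre line can include blood cells as well as endothelium. In each genotype, 2 mice were taken every 4 h from ZT2 to ZT22, where zeitgeber time (ZT) counts the hours from lights on and lights went off at ZT12. Male and female mice were used, their ages are not given in the sources used here, and each library is 1 mouse.

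In the circadian clock, CLOCK and BMAL1 activate genes with E-boxes, and several products of those genes feed back on the pair. CIART, also called CHRONO, is one of these and represses CLOCK-BMAL1. BHLHE40 (DEC1) and BHLHE41 (DEC2) are basic helix-loop-helix repressors that compete for E-boxes, and both also respond to signals outside the clock, such as growth factors, cell stimulation and low oxygen. USP2 is a ubiquitin-specific protease, an enzyme that removes ubiquitin from proteins, and its transcript follows the clock in many tissues.

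The E-box has the letters CACGTG and reads the same on both strands. It was searched on both strands, together with the related E'-box, which differs from it in the last base and has the letters CACGTT, the D-box, with the letters TTATGTAA, and the ROR element, from 250 bases before to 50 bases after each gene's start in RefSeq (GRCm38.p6). The Ciart window, chr3:95882179-95882478 on the minus strand, held 3 E-boxes, whose first bases lay 116, 58 and 44 bases before the start. The Bhlhe41 window, chr6:145865371-145865670 on the minus strand, held 1 E-box, at 153 bases before the start. Both are shown because they hold the element after which these genes are named. They are written 5' to 3' on the strand of the gene, with the E-boxes in capitals.
Ciart: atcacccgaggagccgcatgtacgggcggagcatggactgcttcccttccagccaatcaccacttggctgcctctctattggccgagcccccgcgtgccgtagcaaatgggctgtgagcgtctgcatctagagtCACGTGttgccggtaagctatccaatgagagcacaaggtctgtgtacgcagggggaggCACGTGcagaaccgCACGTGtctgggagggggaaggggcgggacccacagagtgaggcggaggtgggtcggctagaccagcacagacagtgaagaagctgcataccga
Bhlhe41: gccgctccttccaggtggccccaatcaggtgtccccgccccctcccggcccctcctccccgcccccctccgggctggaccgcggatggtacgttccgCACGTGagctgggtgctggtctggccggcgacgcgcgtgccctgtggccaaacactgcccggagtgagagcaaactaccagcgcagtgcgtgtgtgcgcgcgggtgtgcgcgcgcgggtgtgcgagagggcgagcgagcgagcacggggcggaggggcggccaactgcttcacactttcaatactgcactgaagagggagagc
Of 32851 promoter windows in the table, 7.15% held at least 1 E-box and 29 (0.0883%) held 3 or more. The Usp2 window, chr9:44084670-44084969 on the plus strand, held none of the 4 motifs. It lies inside the Ensembl gene, whose first base is 44067021, so it belongs to a later start. Bhlhe40 was not matched to the table. A match shows letters only, and the window leaves out introns and distant elements.

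The deposited values are normalized reads per gene, scaled by the authors to like totals of 6136404 to 6648311 per library, so the original depth is not in them. The targeted gene, listed as Arntl, was counted over its whole length, exons outside the floxed one included, so its reads do not check the deletion. The lower and higher of its 2 mice per time point were, in controls, as follows: ZT2 gave 439 and 466 reads, ZT6 57 and 99, ZT10 1 and 22, ZT14 13 and 15, ZT18 261 and 267, and ZT22 234 and 468. In mutants, the ZT2 pair gave 243 and 259 reads, ZT6 81 and 276, ZT10 120 and 169, ZT14 251 and 354, ZT18 231 and 286, and ZT22 205 and 242, a flatter course. The 10 endothelial markers summed to 84714 reads or more in each library, so endothelial RNA was present throughout. The 8 libraries of ZT6 and ZT18 stood apart from the other 16 in both genotypes. They carry consecutive library numbers, and their 9 microglia and macrophage markers (Cx3cr1, P2ry12, Tmem119, Csf1r and 5 others) summed to 1143 to 1897 reads, against 10091 to 26864 in the others. In the same libraries the astrocyte markers (4431 to 7347 reads, against 9816 to 19707) and oligodendrocyte markers (2096 to 4351, against 5064 to 17738) were lower, the endothelial markers (125995 to 133195, against 84714 to 117516) higher, the pericyte and smooth muscle markers higher in mutants (16873 to 20714, against 7805 to 14032) and with overlap in controls (13021 to 21374, against 9177 to 15886), and the mitochondrial share of reads lower (2.68% to 3.90%, against 5.78% to 17.4%). The part of these differences in the levels of Bhlhe40, Bhlhe41 and Usp2 was not tested. No ZT6 or ZT18 mouse was in another library series, so these times of day and that series cannot be told apart. In sorted bulk cells, fewer cells of a type and less RNA per cell cannot be told apart either.

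Levels were compared between the 4 genes only per kilobase of exon. In controls, Bhlhe40 had 293 ± 104 normalized reads per kb (SD, n = 12), Ciart 43.3 ± 34.2, Usp2 21.3 ± 9.22 and Bhlhe41 16.0 ± 11.3. The lowest control mouse of Bhlhe40, with 106 reads per kb, lay above the highest of Ciart, with 99.1, whereas the ranges of the other 3 genes overlapped. In mutants, Bhlhe40 had 259 ± 89.5 reads per kb (SD, n = 12), Usp2 23.2 ± 16.2, Ciart 22.4 ± 10.3 and Bhlhe41 19.3 ± 14.2. Bhlhe40 thus stood at the 95.6th percentile of the genes tested in controls and the other 3 between the 37.9th and the 63.9th.

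**Figure D1:**
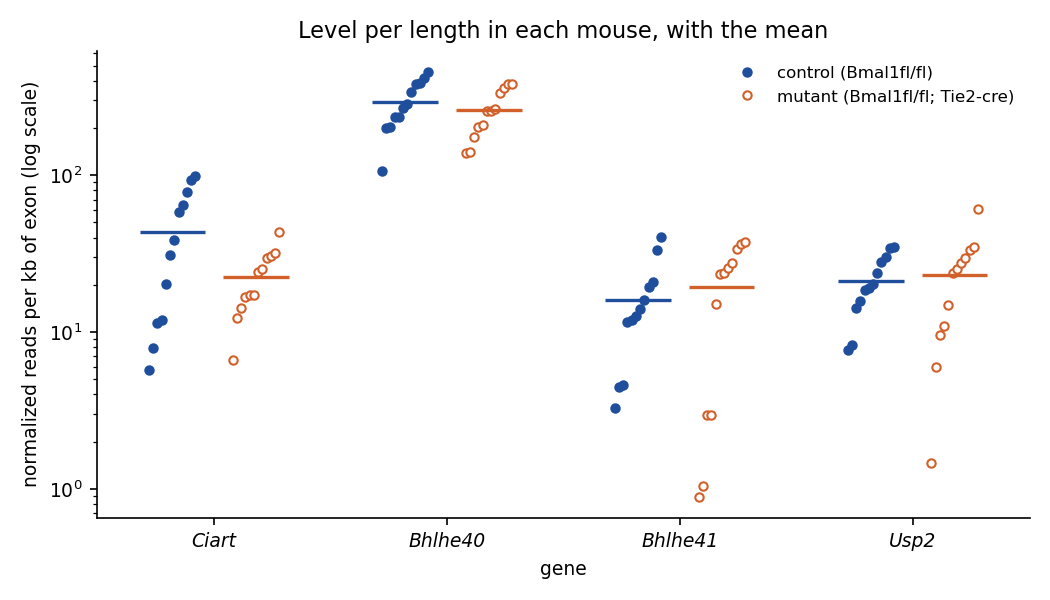
Normalized reads per kilobase of exon (log axis) of the 4 genes in each of 12 control mice (filled) and 12 mutant mice (open), with the mean as a line. Bhlhe40 lies above the other 3 genes in both genotypes, and the Ciart points spread more widely in controls (5.75 to 99.1) than in mutants (6.63 to 43.3).

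Ciart (ENSMUSG00000038550; chr3:95878503-95882251, minus strand) had a daily course that the tests picked up, before adjustment, in control mice and not in mutants. In controls, ZT2 gave 13 and 46 reads, ZT6 211 and 146, ZT10 224 and 176, ZT14 70 and 132, ZT18 26 and 87, and ZT22 18 and 27. The 4 mice of ZT6 and ZT10 were above the 8 others, and the neighbouring time points ZT10 and ZT6 overlapped, as did ZT14 and ZT18, ZT18 and ZT2, and ZT2 and ZT22. The highest mean (200 reads at ZT10) was 8.89-fold the lowest (22.5 reads at ZT22).
In mutants, ZT2 gave 39 and 98 reads, ZT6 55 and 69, ZT10 39 and 15, ZT14 28 and 67, ZT18 72 and 38, and ZT22 57 and 32. Each time point overlapped its neighbour in the order of the means, and the highest mean (68.5 reads at ZT2) was 2.54-fold the lowest (27.0 at ZT10). The time at which controls had their highest mean was thus the time at which mutants had their lowest.

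A cosine of 24 h fitted to log2(reads + 1) gave Ciart an amplitude of 1.67 ± 0.32 (SE, n = 12) in controls, a peak-to-trough ratio of 10.1-fold, with the peak at ZT10.0 ± 0.73 h. In mutants the amplitude was 0.37 ± 0.30 (SE, n = 12), about its own error, and the peak time of ZT0.30 ± 3.05 h is therefore loose. Rhythms were tested with meta2d, which combines the JTK_CYCLE and Lomb-Scargle tests, in each genotype on its own. Of the 4 members, Ciart alone had an unadjusted meta2d p under 0.05 in controls (unadjusted p = 0.00704, q = 1.00), a level that 2.43% of all genes reached. In mutants 0 of the 4 did, against 2.27% of all genes, and Ciart had an unadjusted p = 1.00. With a permutation test of the cosine fit over 100000 permutations, Ciart had p = 0.00441 in controls and p = 0.492 in mutants (two-sided in the sense that any phase counts). In the edgeR test of any difference among the 6 time points (5 degrees of freedom), which needs no 24-h wave, Ciart had an adjusted p = 0.00626 in controls, where 5.85% of all genes passed 0.05, and an unadjusted p = 0.532 in mutants. The edgeR quasi-likelihood cosinor gave an unadjusted p = 0.000208 in controls (adjusted p = 0.115) and an unadjusted p = 0.570 in mutants, beside 4.43% and 4.16% of all genes under 0.05. Without the ZT6 and ZT18 libraries, a fit added after the data were seen, it gave an unadjusted p = 9.67e-05 in controls and an adjusted p = 0.0468 (0.219% of all genes passed an adjusted 0.05), and the fitted amplitude was 1.57 ± 0.33 (SE, n = 8).

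**Figure D2:**
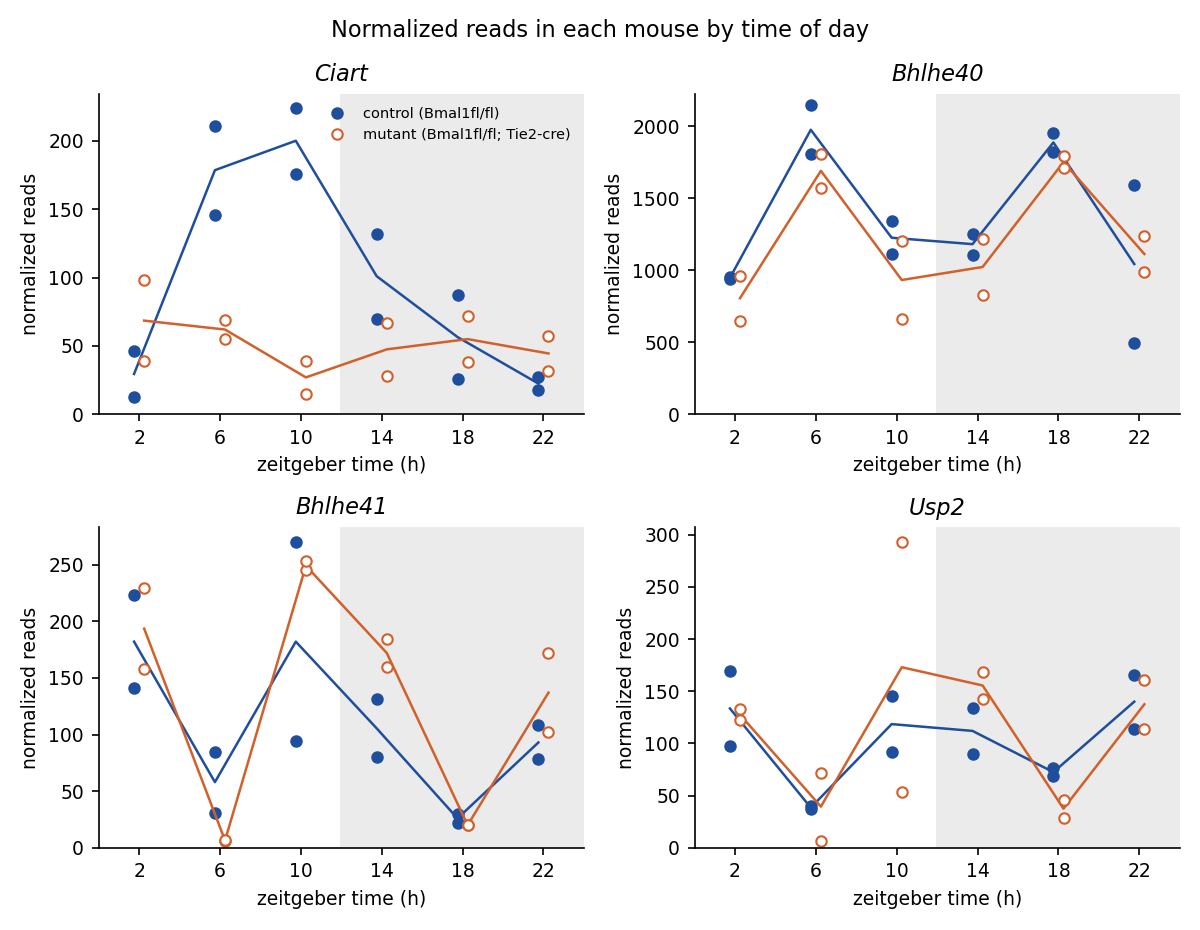
Normalized reads of the 4 genes in each mouse against zeitgeber time (grey, lights off), with lines through the means of 2 mice, for control (blue, filled) and mutant (orange, open) mice. Ciart rises to 176 and 224 reads at ZT10 in controls and lies at 15 and 39 in mutants there, whereas the mean of Bhlhe40 is high and those of Bhlhe41 and Usp2 are low at ZT6 and ZT18 in both genotypes.

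At single time points, the 2 mutant values of Ciart lay below both control values at ZT6, ZT10 and ZT14 and above both at ZT22, and the groups overlapped at ZT2 and ZT18. Among all genes tested, mutants were lower without overlap for 19.4% at ZT6, 15.6% at ZT10 and 14.4% at ZT14, and higher for 16.3% at ZT22, so that a single time point says little. With 2 mice against 2, no exact permutation p can fall below 0.333, and none was computed. The difference was widest at ZT10, where the means were 200 and 27.0 reads, a log2 difference of means of -2.84 with 1 read added to each. At ZT2 and ZT10 the control libraries carried 1 i5 index (the barcode of a library) and the mutant libraries the other, so index and genotype cannot be told apart there, whereas at ZT6, ZT14, ZT18 and ZT22 all 4 libraries shared an index. The ZT14 mutant libraries carry numbers well apart from those of the ZT14 controls, so numbering and genotype cannot be told apart at that time. When the difference in 24-h course between genotypes was itself tested, by letting both the cosine and the sine term depend on genotype in edgeR (2 degrees of freedom), Ciart had an unadjusted p = 0.000887. Its adjusted p was 1.00 over all genes, as 0 of 15493 genes passed an adjusted p of 0.05 (0.0% called; DESeq2 called 1, Arntl). Ciart was 1 of 660 genes (4.26%) with an unadjusted p under 0.05, and the other 3 members were not among them. DESeq2 gave Ciart an unadjusted p = 9.51e-05 and an adjusted p = 0.204. With the time point as a factor (5 degrees of freedom), the profiles of Ciart (unadjusted p = 0.00193) and Bhlhe41 (unadjusted p = 0.000748) differed between genotypes before adjustment, as did those of 5.22% of all genes.

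Over the day, the level of Ciart was 98.0 ± 77.3 reads in controls and 50.8 ± 23.2 in mutants (SD, n = 12 each). The log2 fold change with the time point as a factor was -0.57 (SE 0.38, 95% interval -1.35 to 0.21; edgeR, unadjusted p = 0.148, adjusted p = 0.838). The mutant mean of Ciart was the lower at ZT6, ZT10, ZT14 and ZT18 and the higher at ZT2 and ZT22. This fit has no term for such a change over the day, so its SE holds that change and the spread between mice together. It cannot say whether the difference lies within the spread between mice. Among the genes that feed back on the clock or follow its E-boxes, the period, cryptochrome, REV-ERB, ROR and PAR bZIP genes with Wee1 and Nampt, 14 of 14 passed the filter, and 7 had an adjusted p under 0.05. Nr1d1 (-2.26), Nr1d2 (-1.90), Per3 (-1.89), Dbp (-1.26), Tef (-0.87) and Hlf (-0.76) were lower in mutants and Cry1 (0.89) higher, where the values are log2 fold changes and the adjusted p (edgeR) lay between 8.57e-06 and 0.0115, beside 0.116% of all genes lower and 0.155% higher. Of these calls, 5 were lost in at least 1 alternative fit, in which the highest adjusted p (edgeR) was 0.318 for Per3 (ZT6 and ZT18 alone), 0.326 for Dbp (without ZT6 and ZT18), 0.712 for Hlf (ZT6 and ZT18 alone), 0.191 for Tef (i5 index as a factor) and 0.122 for Cry1 (marker sums of 6 other cell types as covariates). The median over the 14 was -0.48, beside 0.0033 over all genes. By the same test 0 of the 4 members were called, by edgeR or DESeq2, and 0 of 4 had an unadjusted p under 0.05 in edgeR, against 0.271% and 6.95% of all genes.

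**Figure D3:**
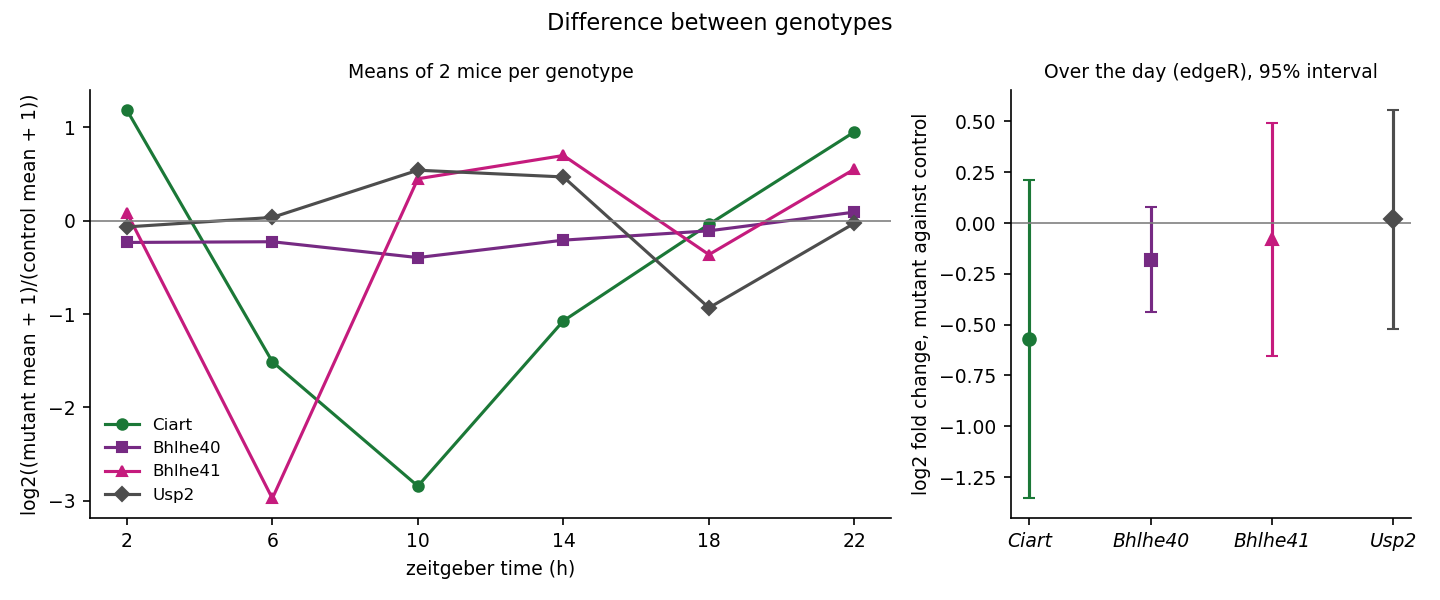
Left, log2 ratio of the mutant to the control mean (2 mice each, 1 read added) at each zeitgeber time for the 4 genes. Right, log2 fold change over the day with its 95% interval (edgeR, 12 mice per genotype). Ciart falls to -2.84 at ZT10 and lies above 0 at ZT2 and ZT22, and all 4 intervals over the day include 0.

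The genes whose course was most like that of Ciart across the 12 control libraries, by Pearson correlation of log2(reads + 1) over 12294 genes with a mean of at least 20 reads, were Dbp (r = 0.90), Pik3ip1 (r = 0.87), Gnl3 (r = 0.86), Rbm20 (r = 0.86) and Slc7a5 (r = 0.86). Dbp is a PAR bZIP transcription factor of the clock's output, Pik3ip1 an inhibitor of PI3 kinase and Slc7a5 an amino acid transporter of the blood-brain barrier. Across the 12 mutant libraries, the correlations of these genes with Ciart were -0.21, -0.21, 0.047, 0.45 and -0.22. The genes were picked for a high r in controls, so lower values in other libraries can come from the picking alone. Nothing is read from the drop. With Arntl, whose trough in controls fell at ZT10, Ciart had r = -0.75 in controls and r = 0.30 in mutants. The fitted amplitude of Dbp was 2.13 ± 0.37 in controls and 1.26 ± 0.19 in mutants (SE, n = 12 each), and its fitted peak lay at ZT9.58 and ZT9.49.

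**Figure D4:**
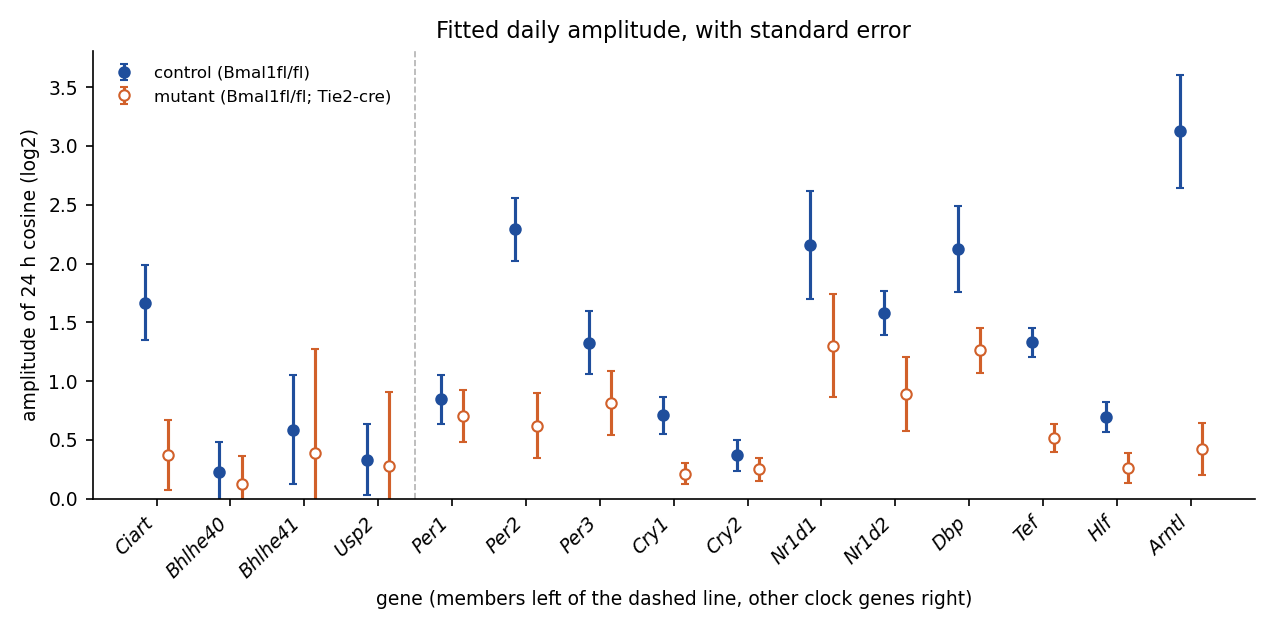
Amplitude of a 24 h cosine fitted to log2(reads + 1), with its standard error, in 12 control (filled) and 12 mutant (open) mice, for the 4 genes (left of the dashed line) and other clock genes (right). Ciart falls from 1.67 to 0.37, while the amplitudes of Bhlhe40 (0.23 and 0.13) and Usp2 (0.33 and 0.28) are below their standard errors or about as large in both genotypes.

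Bhlhe40 (ENSMUSG00000030103; chr6:108660629-108666925, plus strand) was the most abundant of the 4 genes per length and had nearly the same course in both genotypes. Among its control mice, ZT2 gave 939 and 956 reads, ZT6 2145 and 1806, ZT10 1339 and 1113, ZT14 1255 and 1108, ZT18 1954 and 1821, and ZT22 1589 and 498. Among its mutant mice, ZT2 gave 963 and 650 reads, ZT6 1808 and 1573, ZT10 1205 and 660, ZT14 1216 and 830, ZT18 1796 and 1707, and ZT22 1239 and 987. In both genotypes the 4 mice of ZT6 and ZT18 lay above the 8 others, with means of 1932 ± 157 (SD, n = 4) against 1100 ± 323 (SD, n = 8) in controls and 1721 ± 108 against 969 ± 241 in mutants. Among all genes, 1.63% in controls and 1.23% in mutants were higher at ZT6 and ZT18 in this way. ZT6 and ZT18 did not differ beyond their spread in either genotype, nor did the other 4 time points among their neighbours in the order of the means. Across time points that were not neighbours, the control mice of ZT10 and ZT14 all lay above those of ZT2. In mutants, the mice of ZT22 did.

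No 24-h wave was detected for Bhlhe40. The fitted 24 h amplitude was 0.23 ± 0.26 in controls and 0.13 ± 0.23 in mutants (SE, n = 12), and the meta2d p was 1.00 in both. ZT6 and ZT18 lie at opposite times of day, so such a wave cannot fit an offset of that library series. Any such offset adds to the spread around the wave. In fits added after the data were seen, the edgeR cosinor with the series as a term gave Bhlhe40 an unadjusted p = 0.315 in controls and 0.569 in mutants. Without those libraries it gave Bhlhe40 0.395 and 0.344. In the edgeR test of any difference among the 6 time points (5 degrees of freedom), its adjusted p was 0.129 in controls and 0.0227 in mutants. An adjusted p under 0.05 was reached by 5.85% of all genes in controls, Bhlhe40 not among them, and by 5.65% in mutants, Bhlhe40 among them. The courses did not differ detectably between genotypes (unadjusted p = 0.842, edgeR). Over the day, Bhlhe40 had 1377 ± 491 reads in controls and 1220 ± 421 in mutants (SD, n = 12 each), which is a log2 fold change of -0.18 (SE 0.13, 95% interval -0.44 to 0.077; adjusted p = 0.847, edgeR). Without the control mouse of ZT22 with 498 reads it was -0.27 (unadjusted p = 0.00818, adjusted p = 0.458, edgeR), and without the other control of ZT22, with 1589 reads, it was -0.095 and not called either. The mutant mean was the lower at 5 of 6 time points, and the groups did not overlap at ZT18 alone, where mutants were lower, as were 17.7% of all genes; after rescaling by TMM (edgeR's trimmed mean of M-values) they overlapped there too.

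The genes most like Bhlhe40 across controls were Arid5a (r = 0.96), Sik1 (r = 0.95), Rnd1 (r = 0.93), Klf4 (r = 0.93) and Fosl2 (r = 0.93), with r = 0.81, 0.84, 0.85, 0.93 and 0.91 across mutants. Klf4 and Fosl2 are transcription factors, Sik1 a salt-inducible kinase and Rnd1 a small GTPase, and several of these genes are known to be induced quickly when cells are stimulated. The summed reads of 12 immediate-early genes, the first genes transcribed after stimulation (Fos, Jun, Egr1, Atf3 and 8 others), ranged in the ZT6 and ZT18 libraries from 63694 to 84736 and in the others from 23122 to 88029. The 2 control mice of ZT22 differed most in Bhlhe40, with 1589 and 498 reads, and their immediate-early sums were 81975 and 32634. Over the 12 pairs of mice of 1 genotype and time point, the mouse with more Bhlhe40 reads had the higher sum in 7 and the lower in 5. The part of cell handling in these levels was not tested. In the mutants, 11 of 12 immediate-early genes had a fold change above 0 (median 0.27, beside 0.0033 over all genes), 7 had an unadjusted p under 0.05 by edgeR (6.95% of all genes did), 0 an adjusted one, and 0 were called by DESeq2. Jun, a subunit of the AP-1 transcription factor, had the smallest p (log2 fold change 0.31, SE 0.095, adjusted p = 0.282, edgeR). The log2 fold change of Bhlhe40 was -0.18 with a 95% interval of -0.44 to 0.077, so its direction is not settled.

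Bhlhe41 (ENSMUSG00000030256; chr6:145858243-145865558, minus strand), the closest relative of Bhlhe40, had the reverse pattern over the library series. For the controls, ZT2 gave 223 and 141 reads, ZT6 85 and 31, ZT10 270 and 94, ZT14 80 and 131, ZT18 22 and 30, and ZT22 78 and 108. For the mutants, ZT2 gave 158 and 229 reads, ZT6 6 and 7, ZT10 245 and 253, ZT14 160 and 184, ZT18 20 and 20, and ZT22 102 and 172. The ZT6 and ZT18 mutants, with 13.3 ± 7.80 reads (SD, n = 4), were all below the other mutants, with 188 ± 51.4 (SD, n = 8), as were 5.24% of all genes. In controls the means were 42.0 ± 28.9 and 141 ± 70.2, and the groups overlapped through 1 mouse of ZT6 with 85 reads.

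In the test of any difference among the 6 time points, Bhlhe41 had an adjusted p of 0.0310 in controls and 4.11e-06 in mutants (edgeR, 5 degrees of freedom). An adjusted p under 0.05 was reached there by 5.85% of all genes in controls and 5.65% in mutants. The 24-h cosine gave amplitudes of 0.59 ± 0.46 and 0.39 ± 0.89 (SE, n = 12), and the meta2d p was 0.992 in controls and 1.00 in mutants. In the 8 mice of each genotype outside ZT6 and ZT18, the amplitudes were 0.79 ± 0.42 with a peak at ZT6.01 in controls and 0.57 ± 0.20 with a peak at ZT7.50 in mutants, peaks that fall where no library was left. The edgeR cosinor over those mice gave an unadjusted p = 0.0952 and an unadjusted p = 0.0436, with adjusted p-values of 0.932 and 0.843.

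The order of the Bhlhe41 means between genotypes was not the same in the ZT6 and ZT18 libraries as in the others, and no test of this passed adjustment. At ZT6 the mutants had 6 and 7 reads against 85 and 31, and at ZT18 they had 20 and 20 against 22 and 30, so that mutants were lower without overlap at both times (as for 19.4% and 17.7% of all genes). At ZT14 they were higher without overlap, with 160 and 184 reads against 80 and 131 (as for 26.0% of all genes), and their means were also the higher at ZT2, ZT10 and ZT22, with overlap. Fitted on the ZT6 and ZT18 libraries, the log2 fold change was -1.68 (SE 0.75, edgeR, unadjusted p = 0.0330, adjusted p = 0.866). Without those libraries it was 0.43 (SE 0.21, unadjusted p = 0.0493, adjusted p = 0.860). Mutants were lower at an unadjusted p under 0.05 for 2.87% of genes in the first fit and higher for 2.99% in the second. In a joint fit of all libraries, the interaction of genotype with library series was -2.05 (SE 0.54, 95% interval -3.14 to -0.96; edgeR, unadjusted p = 0.000613, adjusted p = 1.00), and 4.38% of all genes had an unadjusted p under 0.05 in this test, which was chosen after the values were seen. Over all 24 libraries, Bhlhe41 had 108 ± 75.6 reads in controls and 130 ± 95.3 in mutants (SD, n = 12) and a log2 fold change of -0.081 (SE 0.28, 95% interval -0.65 to 0.49; adjusted p = 0.984). The fitted fold change, which is on the log scale with a term for each time point, thus has the opposite sign to the difference of these means. The summed microglia and macrophage markers of the ZT6 mice were 1144 and 1143 reads in controls and 1299 and 1218 in mutants. With this sum as a term, in fits added after the data were seen, the log2 fold change of Bhlhe41 was -0.13 (SE 0.28, edgeR, unadjusted p = 0.642). The difference in course then had an unadjusted p = 0.0916 (edgeR, adjusted p = 0.863). The interaction of genotype with library series was not fitted with that term, so the part of these cells in it was not tested.

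**Figure D5:**
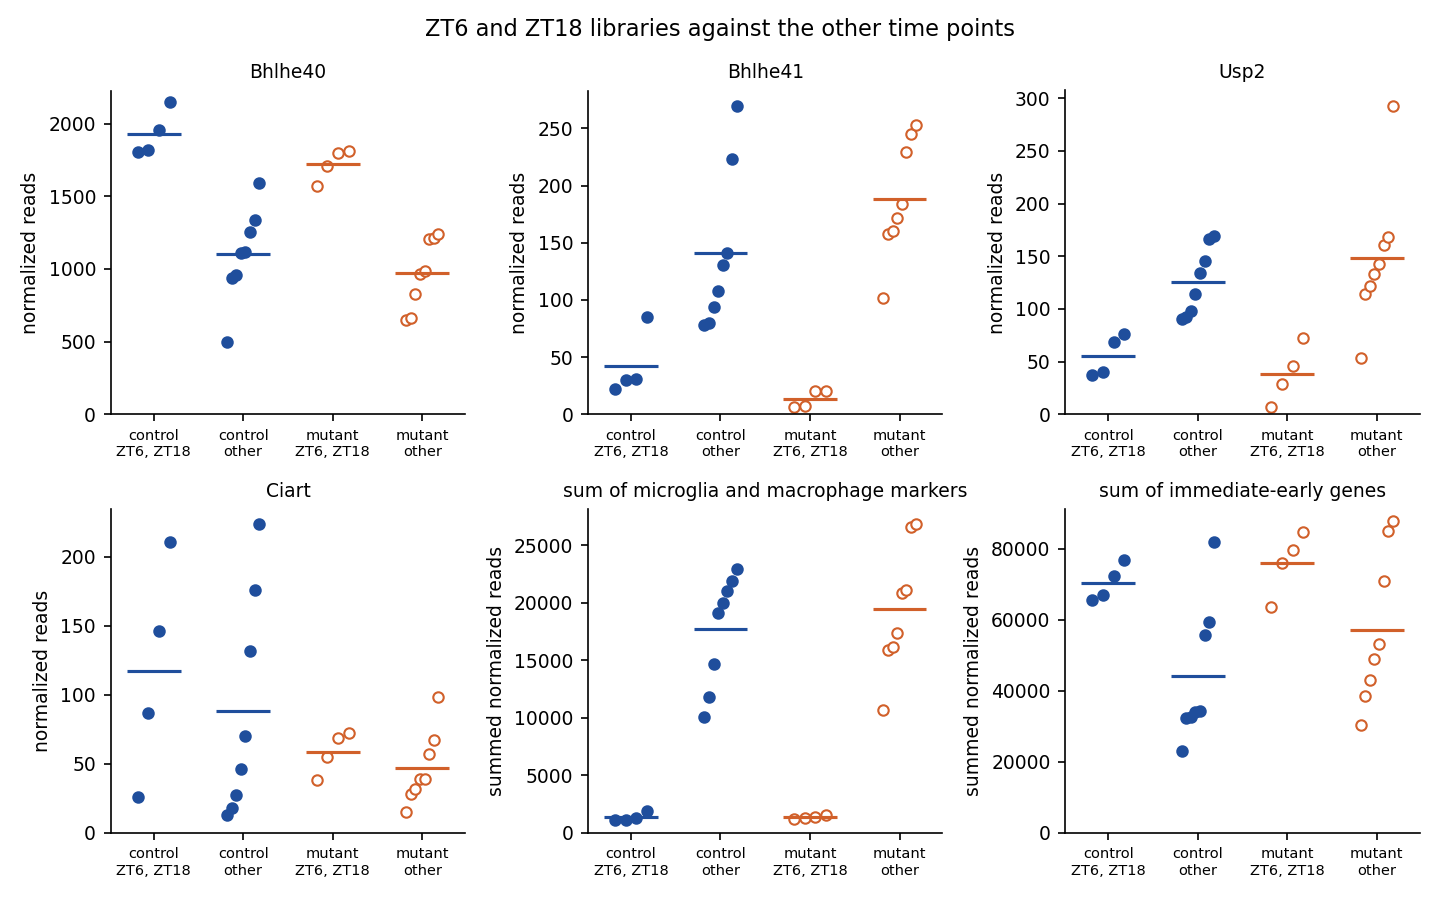
Normalized reads of the 4 genes, summed microglia and macrophage markers and summed immediate-early genes in each mouse of the ZT6 and ZT18 libraries (4 per genotype) and of the other time points (8 per genotype), with the mean as a line, for control (filled) and mutant (open) mice. The mean of Bhlhe40 is higher and those of Bhlhe41 and Usp2 are lower in the ZT6 and ZT18 libraries, where the marker sum is 1143 to 1897 reads. The values overlap for Bhlhe41 in controls, for Usp2 in mutants and for Ciart in both genotypes.

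Usp2 (ENSMUSG00000032010; chr9:44067021-44095627, plus strand) had no detected 24-h course in either genotype and had lower means in the ZT6 and ZT18 libraries. Of the control mice, ZT2 gave 98 and 169 reads, ZT6 37 and 40, ZT10 145 and 92, ZT14 134 and 90, ZT18 76 and 69, and ZT22 114 and 166. Of the mutant mice, ZT2 gave 133 and 122 reads, ZT6 72 and 7, ZT10 53 and 293, ZT14 143 and 168, ZT18 46 and 29, and ZT22 114 and 161. The 4 control mice of ZT6 and ZT18 (55.5 ± 19.9 reads, SD) were all below the other 8 (126 ± 32.2), as were 4.09% of all genes, and in mutants the means were 38.5 ± 27.5 and 148 ± 68.3, with overlap. The 2 ZT10 mutants, with 53 and 293 reads, and the 2 ZT6 mutants, with 72 and 7, differed by a larger ratio than any pair of control mice of 1 time point.

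The fitted amplitude of Usp2 was 0.33 ± 0.30 in controls and 0.28 ± 0.63 in mutants (SE, n = 12), and the meta2d p was 1.00 in both. As for Bhlhe40, an offset of the ZT6 and ZT18 libraries adds to the spread around such a wave. In fits added after the data were seen, the edgeR cosinor with the series as a term gave an unadjusted p = 0.229 in controls and 0.786 in mutants. Without those libraries it gave 0.850 and 0.690. The test of any difference among the 6 time points gave adjusted p-values of 0.143 and 0.247 (edgeR). Over the day Usp2 had 103 ± 44.4 reads in controls and 112 ± 78.1 in mutants (SD, n = 12 each), which is a log2 fold change of 0.018 (SE 0.26, 95% interval -0.52 to 0.56; adjusted p = 0.995), and the courses did not differ detectably between genotypes (unadjusted p = 0.761, edgeR). At ZT14 the mutants were higher without overlap and at ZT18 lower, as were 26.0% and 17.7% of all genes, and the ZT14 difference was lost after rescaling by TMM.

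Bhlhe41 and Usp2 had as their most similar genes across controls some that were also lower in the ZT6 and ZT18 libraries. For Bhlhe41 these genes were Fscn1 (r = 0.92), Kcnk6 (r = 0.91), 2900011O08Rik (r = 0.91), Rubcnl (r = 0.91) and Tbc1d16 (r = 0.91), of which 3 of 5 were lower in those control libraries without overlap, beside 4.09% of all genes. For Usp2 they were C5ar2 (r = 0.95), a complement receptor, 4931406C07Rik (r = 0.93), Brsk2 (r = 0.91), Gm10790 (r = 0.90) and Bcan (r = 0.90), a proteoglycan of brain matrix, of which 4 of 5 were. Genes picked for their likeness to a gene that is lower in those libraries tend to share that split, so nothing is read from these counts. C5ar2 had 0 to 4 reads in the ZT6 and ZT18 controls and 18 to 89 in the others. For the genes most like Ciart, 0 of 5 were lower or higher in those libraries without overlap, and for Bhlhe40 1 of 5 (Sik1) was higher. Marker sums were terms only in comparisons between genotypes, so the part of other cell types in the levels of Bhlhe41 and Usp2 was not tested.

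The 4 genes did not move as one group. Across controls, Bhlhe40 was correlated negatively with Bhlhe41 (r = -0.57) and Usp2 (r = -0.72) and Bhlhe41 positively with Usp2 (r = 0.55), and across mutants the values were -0.83, -0.71 and 0.76, where all 12 points of a genotype share the split by library series. Ciart had r of 0.35 with Bhlhe40, 0.018 with Bhlhe41 and -0.40 with Usp2 in controls.

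The relatives of these genes gave few calls. Of the 10 HES and HEY genes, repressors of the same helix-loop-helix class as Bhlhe40 and Bhlhe41, 5 passed the filter and 0 were called in level by edgeR or DESeq2, and 0 had an unadjusted p under 0.05. The smallest p was that of Hey1 for the difference in course (unadjusted p = 0.134, edgeR). Of 47 other ubiquitin-specific proteases, 42 passed the filter and 0 were called in level by either tool, with 4 at an unadjusted p under 0.05 (6.95% of all genes were). Their median log2 fold change was 0.0085, beside 0.0033 over all genes. The difference in course passed 0.05 before adjustment for 3 of them, Usp16 (unadjusted p = 0.0225), Usp47 (unadjusted p = 0.0251) and Usp43 (unadjusted p = 0.0266), against 4.26% of all genes. Of 12 genes induced by low oxygen, to which Bhlhe40 and Bhlhe41 are also known to respond, 10 passed the filter, 0 were called in level by either tool and 1, P4ha1, a collagen prolyl hydroxylase, had an unadjusted p under 0.05 (log2 fold change 0.32, SE 0.15, adjusted p = 0.697, edgeR). Of the 5 genes of the activating and opposite arm (Arntl, Clock, Npas2, Nfil3 and Arntl2), all were above 0 with a median of 0.96, 4 at an unadjusted p under 0.05 (beside 6.95% of all genes), 0 called by edgeR (beside 0.271%) and 1 by DESeq2. Arntl itself had a log2 fold change of 0.96 (SE 0.43, adjusted p = 0.639) and the smallest p of this list for the difference in course (unadjusted p = 9.11e-06, adjusted p = 0.141, edgeR).

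Genes on the opposite strand overlap each of the 4 loci, and the sources used here do not say how the strand was used in counting. The overlapping genes had at most 19 reads (C920021L13Rik at Ciart), 0 at Bhlhe40 and Bhlhe41 and 3 at Usp2 in any library.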

How the data were processed

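Per the labels and the study's methods, the authors aligned paired reads to GRCm38 with STAR 2.5.3a, assigned them to Ensembl genes and scaled the gene counts with PORT, and deposited whole-number normalized counts, which were handled as counts. Groups came from the sample titles. The 4 genes, the gene lists and the tests were chosen with earlier results of these data known. The edgeR p-values rest on the spread that each fit leaves. In the level fit this holds the spread between mice and any change of the genotype effect over the day. In the fits of a cosine and a sine it also holds any course that is not a 24-h wave, such as an offset of ZT6 and ZT18. Level was compared by quasi-likelihood in edgeR 4.0.16 (R 4.3.3) after TMM scaling, with a term per time point, the daily course with genotype by cosine and sine, and rhythm with meta2d rewritten in Python 3.11.15 (NumPy 2.4.6, SciPy 1.17.1, pandas 2.3.3), with Benjamini-Hochberg adjustment over 15493 genes. DESeq2 1.42.0 was an alternative. Coordinates and exon lengths came from a GENCODE annotation of GRCm38, with a length for 53360 of 53465 genes, and promoters from RefSeq (3 of 4 matched). Genes named are the 4, Arntl, the 5 most correlated with each, and per list those called in level or with an unadjusted p under 0.05 for the course (else the smallest p). Scripts were tested on simulated data. Fits of course or rhythm without the ZT6 and ZT18 libraries, and level fits within them, were added after the data were seen. So were fits with the library series or the microglial sum as a term, and those with ties kept. The level fit without the ZT6 and ZT18 libraries was planned. Plots used matplotlib 3.10.9.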

Additional observations from a re-analysis of the deposited data

Results flagged for a closer look

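Ciart stood out because its 24-h course differed between genotypes, before adjustment, by a test of the difference itself (edgeR interaction of genotype with cosine and sine, unadjusted p = 0.000887, adjusted p = 1.00). That unadjusted p lay between 0.000176 and 0.00261 without each mouse in turn. Its profile over the 6 time points gave an unadjusted p = 0.00193 and an adjusted p = 0.553 (5 degrees of freedom, edgeR).

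Bhlhe41 stood out because its genotype difference in the ZT6 and ZT18 libraries differed from that in the others before adjustment, in a test chosen after the values were seen (edgeR interaction, unadjusted p = 0.000613, adjusted p = 1.00), with a log2 fold change of -1.68 (SE 0.75) in the first and 0.43 (SE 0.21) without them. Its profile over the 6 time points also differed between genotypes before adjustment (edgeR, unadjusted p = 0.000748, adjusted p = 0.542). An unadjusted p under 0.05 was reached there by 5.22% of all genes. Both tests read the same libraries. With 2 mice for each genotype and time point, no mouse was tested for lying far from its group.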

How the results depend on the processing

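Ciart kept an unadjusted p under 0.05 in controls and above it in mutants in each alternative run (1.06e-05 to 0.0119, and 0.00190 to 0.0353 without each mouse, in controls; 0.492 or more in mutants), and its level stayed below 0 (-0.77 to -0.36). Its difference in course passed an adjusted p of 0.05 only with no filter on low values (unadjusted p = 7.60e-06, adjusted p = 0.00598). In the edgeR test of any difference among the 6 time points, Ciart passed an unadjusted 0.05 in controls. Bhlhe40, Bhlhe41 and Usp2 did so in both genotypes. Their unadjusted p-values (edgeR) in controls and mutants were 0.0115 and 0.000960 for Bhlhe40, 0.00154 and 8.75e-09 for Bhlhe41, and 0.0133 and 0.0341 for Usp2. Of all 15493 genes, 2385 in controls and 2574 in mutants passed an unadjusted 0.05. An adjusted 0.05 was passed by Bhlhe41 in both genotypes, Bhlhe40 in mutants and Ciart in controls. It was passed by 5.85% of all genes in controls and 5.65% in mutants. In the edgeR cosinor, Bhlhe41 passed an unadjusted 0.05 with the library series as a factor in controls (0.0310) and without ZT6 and ZT18 in mutants (0.0436). The Bhlhe41 fold change turned positive with marker sums of other cell types as covariates (0.053), without ZT6 and ZT18 (0.43) and without control ZT6 mouse 1 or either ZT6 mutant (range over mice left out -0.20 to 0.088). That of Usp2 turned negative with the i5 index (-0.11), the microglial sum (-0.034) and in ZT6 and ZT18 alone (-0.42), and without any of 8 mice (range -0.21 to 0.12). None of these turned fold changes passed an adjusted 0.05, and the causes were not tested.

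Counts of genes over the whole table moved more. The 42 genes called in level became 99 with DESeq2, 7 with the i5 index (which differs between genotypes at ZT2 and ZT10), 9 with marker sums, 141 with no filter, 3 in ZT6 and ZT18 alone, and 25 to 68 without each mouse (25 and 68 without ZT6 mutant 2 and 1). The 0 called in course became 1 with DESeq2, the i5 index, the library series or the microglial sum, 14 with marker sums, 52 with no filter, 2 over 6 time points, 5 without ZT6 and ZT18, and 0 to 1 without each mouse (1 without control ZT22 mouse 2). The 377 genes with a meta2d p under 0.05 in controls and 351 in mutants became 234 and 199 with ties kept, 686 and 645 with the edgeR cosinor, and 2385 and 2574 with the edgeR test over 6 time points. The edgeR cosinor counts of 686 and 645 became 963 and 1032 with the library series as a factor and 886 and 903 without ZT6 and ZT18. Replicate numbers did not pair the mice (correlations of deviations -0.0057 to 0.022), and a replicate block changed no call of the 4 genes, giving 45 genes in level, 0 in course and 630 and 590 in the cosinor. With 10 reads required in every library, Bhlhe41 and Usp2 were not tested. Reads of 6 and 7 limit the ZT6 values of Bhlhe41 in mutants.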
